A study of Mus musculus with 2 samples.

Results

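Mitochondrial ribosomal protein (MRP) genes are nuclear genes for the protein parts of the mitochondrial ribosome. They were chosen by symbol, as autosomal protein-coding genes called Mrpl or Mrps followed by a digit in the basic GENCODE annotation of GRCm38. There were 78 of them, 49 with Mrpl and 29 with Mrps symbols, among 20807 autosomal protein-coding genes. A thyroid hormone receptor binding site (TRBS) was linked to a gene when its summit, the position of the highest pileup of immunoprecipitated fragments, lay within 30 kb of the transcription start site (TSS). This gave 18 TRBS linked to MRP genes, out of 5107 TRBS in the list.

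The list came from brown adipose tissue of male C57BL/6J mice, 8 to 12 weeks old. Per the labels, their brown adipocytes expressed the receptor TRα1 with a GS tag, so receptors of the other cells of the tissue were untagged. Propylthiouracil in the food, which blocks thyroid hormone synthesis, was given for 2 weeks, and thyroid hormone was injected over the last 24 h. The ChIP library and its input library came from mice of this 1 genotype and treatment, and hypothyroid tissue without hormone was not analysed here. With 1 ChIP library and 1 input library there was no replicate error, so no difference was tested and the intervals given cover counting error only.

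The mitochondrial ribosome translates the mRNAs of mitochondrial DNA, which code for core subunits of the respiratory chain and of the ATP synthase. It has a small subunit, which binds the mRNA, and a large subunit, which forms the peptide bonds. Brown adipocytes are rich in mitochondria and burn fuel for heat, and thyroid hormone is a known stimulus of this tissue. TRα1 binds DNA with RXR, best at the DR4 element, a direct repeat of the AGGTCA half-site with a spacer of 4 bp. The symbols follow older names of the proteins. The product of Mrps30 is now placed in the large subunit, and that of Mrps36 is known as a subunit of the 2-oxoglutarate dehydrogenase complex.

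A DR4 with at most 2 mismatches in its 12 half-site bases was found in 5 of the 18 TRBS, linked to 4 MRP genes. The elements of 3 of these genes are shown first, as the matches in the linked TRBS to the known element of the receptor. Capitals mark the half-sites, and lower case marks the spacer and 7 bases on each side.
Mrps18b: ggatggcAGGTCAcccgAGGTCAagcctga
Mrpl36: aagtttcAGGTCAaccaGGGTTAccgagcc
Mrpl55: ataccaaAGGTCGtatgAGGCCAagcagag

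The element in the TRBS linked to Mrps18b had no mismatch, and a perfect DR4 was present in only 44 of the 5107 TRBS (0.862%). It lay at chr17:35896740-35896755 (GRCm38), centred on the summit. The element of Mrpl55 (chr11:59207221-59207236) had 2 mismatches and lay 2 bp from its summit. The element of Mrpl36 (chr13:73331927-73331942, minus strand), also with 2 mismatches, lay 10 bp from its summit. Of the elements linked to Mrps7, which are not shown and had 2 mismatches each, one lay 2 bp and the other 246 bp from its summit. The share of linked TRBS with a DR4 was 27.8% (95% Wilson interval 12.5 to 50.9%). It was 32.0% (30.7 to 33.3%) in all TRBS, and the order turned, with 77.8% against 72.5%, when 3 mismatches were allowed. Flanking sequence as wide as each TRBS, taken 2 kb outside it, held a DR4 in 0 of 35 windows around the linked TRBS, which allows a share of up to 8.57% (here and for every share of 0, the limit is 3 counts of the total, not a Wilson bound). It held one in 5.44% of 9870 windows around all TRBS.

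The first comparison asked how often an MRP gene had a TRBS within 30 kb, the distance used in the study to assign TRBS to genes. A TRBS was present for 14 of the 78 MRP genes, or 17.9% (11 to 27.9%). The share over all autosomal protein-coding genes was 17.3% (3610 of 20807). The MRP share was near that of the genome as a whole, and it was on the other side of it, 7.69% against 8.38%, with a limit of 10 kb, and 12.8% against 14.6% with a score of at least 60. More than 1 TRBS was present for 3 MRP genes, Mrps7, Mrps21 and Mrps34, against 4.77% of all genes. The other 64 MRP genes had none within 30 kb. Genes with Mrps symbols had a TRBS in 8 of 29 cases (27.6%, 14.7 to 45.7%) and genes with Mrpl symbols in 6 of 49 cases (12.2%, 5.73 to 24.2%), and these intervals overlap.

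Shares rose with the distance limit in both groups. Within 1 kb, 1 MRP gene (1.28%, 0.227 to 6.91%) and 3.13% of all genes had a TRBS. Within 10 kb, 6 MRP genes (7.69%, 3.57 to 15.8%) and 8.38% of all genes had a TRBS. Within 100 kb, 38 MRP genes (48.7%, 37.9 to 59.6%) and 39.8% of all genes had one. At 200 kb the MRP share was 71.8% (61.0 to 80.6%), above the 57.5% of all genes. The median distance from the TSS to the closest summit was 101 kb for MRP genes, with quartiles at 46.6 and 233 kb, and 150 kb for all genes. At the edge of the limit, the last MRP genes inside it were Mrpl34 at 22957 bp and Mrpl51 at 25911 bp, and the first outside it were Mrpl20 at 32868 bp and Mrpl11 at 33169 bp.

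**Figure D1:**
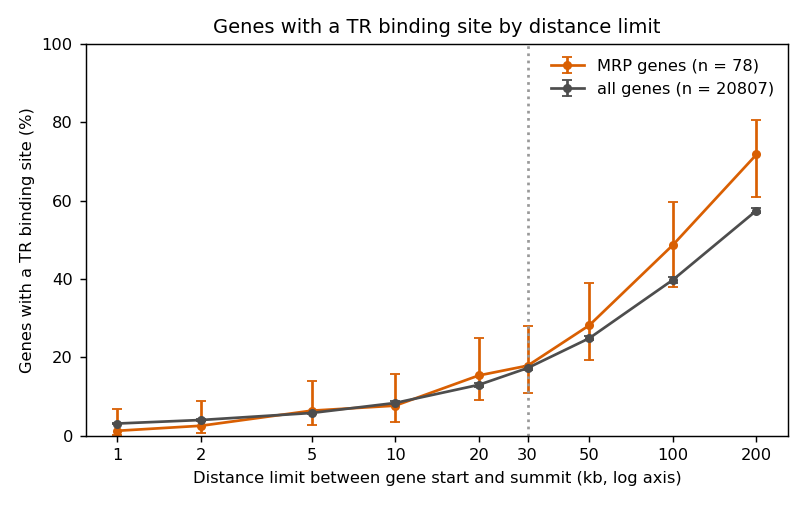
Share of genes with a TRBS (%, y axis) by the distance limit between TSS and summit (kb, log x axis), for the 78 MRP genes and all 20807 autosomal protein-coding genes. Bars are 95% Wilson intervals and the dotted line is the 30 kb limit, where the shares are 17.9% and 17.3%.

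The second comparison separated TRBS at the own promoter from those of neighboring genes. A summit in the promoter, from 1000 bp upstream to 100 bp downstream of the TSS, was found for 0 of the 78 MRP genes, which allows a share of up to 3.85%. The share over all genes was 1.82% (379 genes), so at this number of genes a share as low as that of the genome was not distinguishable from 0. The lowest pileup in the list was 5 fragments, and weaker occupancy of an MRP promoter would not have been listed. The TRBS closest to an MRP TSS was that of Mrps30, 394 bp downstream.

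The nearest protein-coding TSS belonged to the linked MRP gene for 2 of the 18 TRBS, those of Mrps36 and Mrps21. Only that of Mrps36 had a score of at least 60. The nearest TSS was that of another gene for 16 TRBS, and 3 of these lay in the promoter of that gene. The share of linked TRBS in a promoter was 16.7% (5.84 to 39.2%), against 12.7% of TRBS linked to any autosomal gene. Counted by gene, 2 MRP genes (2.56%, 0.706 to 8.88%) were the nearest gene of a TRBS within 30 kb, against 10.2% of all genes. Counted by gene–site pair, the MRP gene was the nearest in 11.1% of pairs (3.10 to 32.8%), compared with 53.6% of 5356 pairs over all genes. Each MRP-linked TRBS had between 2 and 7 protein-coding genes within 30 kb, with a median of 4. When all pairs were limited to TRBS with 2 to 7 genes, the linked gene was the nearest in 35.8% (34.3 to 37.4%) of 3517 pairs. Each TRBS has only 1 nearest gene, so a share of pairs falls as the number of genes per TRBS rises. That number had a median of 2 over all 5356 pairs. The limit to 2 to 7 genes did not match it to the MRP pairs, so no deficit of MRP genes can be read from these shares of pairs. For Mrpl36 and Mrps30 the TRBS was only 29 and 166 bp closer to a neighboring TSS than to the MRP TSS. With genes counted when they were at most 1 kb farther than the nearest one, the numbers were 4 of 18 TRBS (22.2%, 9 to 45.2%) and 43.1% (41.5 to 44.8%) of all pairs at TRBS with 2 to 7 genes. Pairs at 1 locus share TRBS and neighbors, so they are not independent of each other.

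MRP genes often start next to another gene. Another protein-coding TSS was present within 1 kb for 34 of the 78 (43.6%, 33.1 to 54.6%), against 12.9% (12.4 to 13.3%) of all genes. No other protein-coding TSS was present within 30 kb for 15 MRP genes (19.2%), against 39.9% of all genes. These 15 MRP genes had no TRBS within 30 kb (0 of 15, which allows a share of up to 20.0%). Among all genes without a neighbor, the share with a TRBS was 13.7% (1136 of 8294). MRP genes with 1 or 2 neighbors had a TRBS in 6 of 35 cases (17.1%), and those with 3 or 4 neighbors in 7 of 22 cases (31.8%, 16.4 to 52.7%). The corresponding shares of all genes were 18.1% and 21.3%. With 5 or more neighbors, 1 of 6 MRP genes and 30.2% of all genes had a TRBS.

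**Figure D2:**
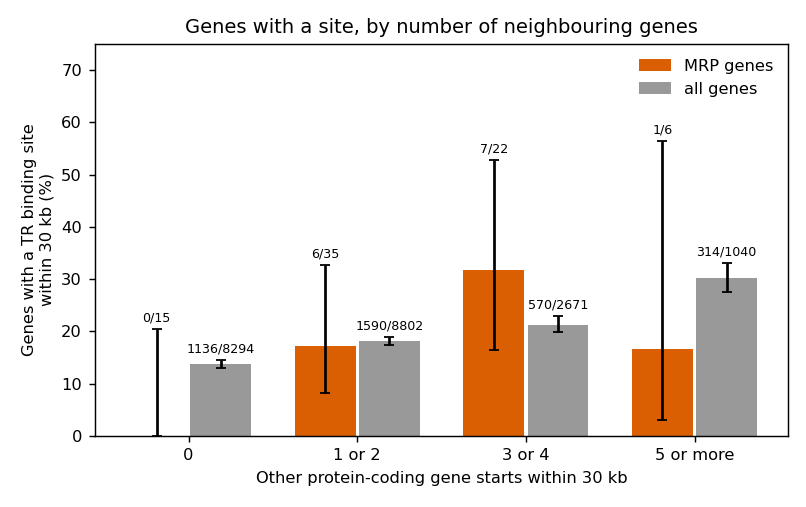
Share of genes with a TRBS within 30 kb (%, y axis) by the number of other protein-coding gene starts within 30 kb (x axis), with 95% Wilson intervals and the counts above the bars. None of the 15 MRP genes without a neighbor had a TRBS, while 1136 of 8294 such genes had one among all genes.

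**Figure D3:**
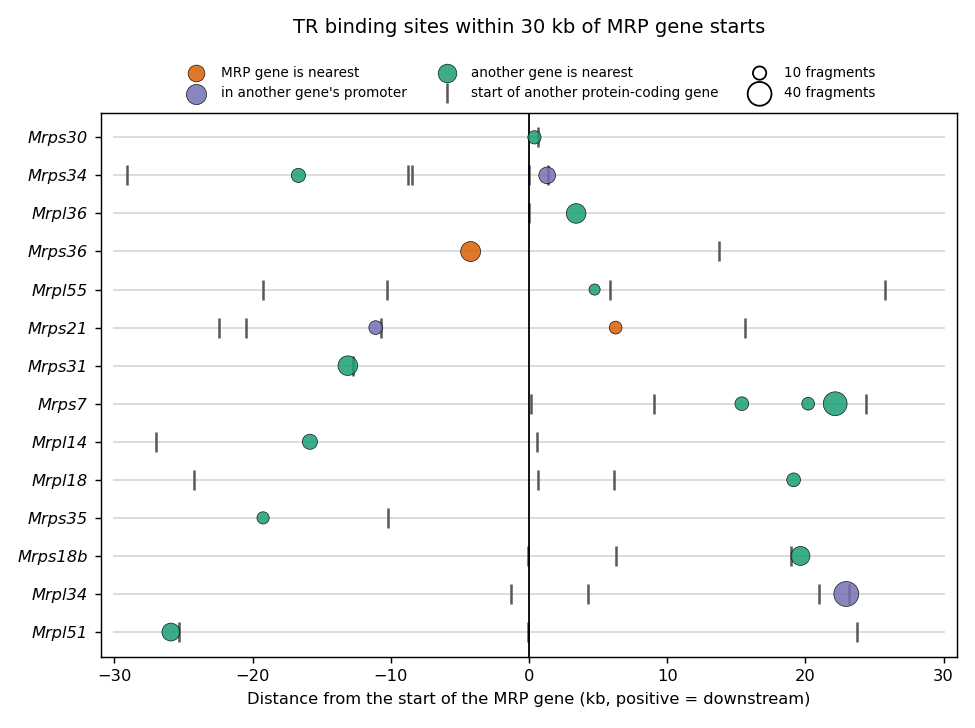
Position of the 18 TRBS (circles, area rising with fragments at the summit) relative to the start of the linked MRP gene (0, kb, positive downstream), with 1 row per gene. Vertical ticks are the starts of other protein-coding genes. Colors mark whether the nearest start is that of the MRP gene (2 TRBS) or of another gene (13), or the summit is in another gene's promoter (3).

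The strength of a TRBS is given by the number of ChIP fragments that overlapped the summit and the background from the input on the same scale, both recovered from the peak statistics. The fold is the ratio of these values with 1 added to each, and the score is 10 times the −log10 q-value of the peak. TRBS next to or inside an MRP gene are described first. The one nearest to Mrps36 (chr13:100748728-100749073) was intergenic and lay 4224 bp upstream of the TSS at 100744659. It had 27 fragments at its summit (95% Poisson interval 17.8 to 39.3) over an input background of 0.913, with a fold of 14.6 and a score of 269. This was the strongest TRBS with an MRP gene as its nearest gene, above 74.0% of all TRBS in fragments. Mrps36 is in the set by its symbol, and its product is known as a subunit of another complex, as given above. The promoter of Mrps36 held a DR4 with 2 mismatches 769 bp upstream of the TSS (chr13:100745420-100745435), which was not in a TRBS. The bases around the summit, shown to compare with the DR4 elements above, held no such element. Capitals mark 6-base stretches with at most 1 mismatch to the half-site on either strand, of which the median window of 121 bp around all summits held 2.
Mrps36, chr13:100748823-100748943: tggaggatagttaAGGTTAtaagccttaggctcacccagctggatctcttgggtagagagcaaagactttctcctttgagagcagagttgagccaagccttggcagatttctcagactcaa
Mrps21, chr3:95865190-95865310: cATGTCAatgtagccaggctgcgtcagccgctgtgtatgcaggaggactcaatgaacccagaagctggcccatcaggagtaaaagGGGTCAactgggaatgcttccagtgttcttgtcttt

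Mrps21, which codes for a protein of the small subunit, had 2 linked TRBS, both weak. The intronic one (chr3:95864985-95865364), 6269 bp downstream of the TSS, had 9 fragments (4.12 to 17.1) with a fold of 6.22 and a score of 56. The second one (chr3:95882530-95883072) was in the promoter of Ciart, a repressor of the circadian clock, 360 bp upstream of the Ciart TSS. It had 11 fragments (5.49 to 19.7), but the background of 2.13 was the highest of the 18 and the score was only 24.

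Mrpl36, of the large subunit, starts 29 bp from the TSS of Ndufs6, a gene for a subunit of respiratory complex I. Its TRBS (chr13:73331576-73332116) lay 3411 bp downstream, in the 3′ UTR of Mrpl36 and 3382 bp upstream of Ndufs6. It had 26 fragments (17.0 to 38.1), a fold of 11.9 and the DR4 shown above. When the starts of all basic transcripts were used, an annotated start of Mrpl36 lay 898 bp before the summit, and the TRBS was then nearest to Mrpl36.

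Mrps30 has its TRBS (chr13:118386714-118387248) where coding exons of Mrps30 and of the neighboring gene B430218F22Rik overlap on opposite strands. The TSS of B430218F22Rik lies 622 bp from that of Mrps30. The TRBS had 10 fragments (4.80 to 18.4), a fold of 5.72 and a score of 50, no DR4 and a GC content of 70.1%. Mrps34, a protein of the small subunit, had a TRBS inside the gene 1315 bp downstream of its TSS (chr17:24896276-24896718). This summit was 69 bp upstream of the TSS of Nme3, which codes for a nucleoside diphosphate kinase, and it had 18 fragments (10.7 to 28.4) with a fold of 11.4. A second TRBS linked to Mrps34 (chr17:24878251-24878690) was in the 5′ UTR of Igfals, a carrier of insulin-like growth factors, with 12 fragments (6.2 to 21).

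The 2 strongest MRP-linked TRBS, those of Mrpl34 and Mrps7, were nearer to the TSS of another gene. The TRBS nearest to Mrps36, with 27 fragments, came next. The highest pileup, 44 fragments (32.0 to 59.1) with a fold of 28.0 and a score of 614, was in the promoter of Gtpbp3 (chr8:71487758-71488261). Gtpbp3 modifies mitochondrial tRNAs, and the TRBS was 187 bp from its TSS but 22957 bp from that of Mrpl34. Mrps7, of the small subunit, was linked to 3 TRBS, with 40 (28.6 to 54.5), 11 (5.49 to 19.7) and 9 fragments (4.12 to 17.1), and was the nearest gene of none of them. Mrps31 was linked to a TRBS with 26 fragments (17.0 to 38.1) in an intron of Slc25a15, the mitochondrial ornithine carrier, 344 bp downstream of that TSS (chr8:22397906-22398355).

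The perfect DR4 linked to Mrps18b was in the 5′ UTR of 2310061I04Rik, 683 bp downstream of its TSS and 19641 bp from that of Mrps18b (chr17:35896427-35897367). Its TRBS had 24 fragments (15.4 to 35.7), a fold of 17.5 and a score of 304. Mrpl51 was linked to the widest of the 18, a TRBS of 1056 bp in an intron of the glycolytic gene Gapdh, 577 bp downstream of its TSS (chr6:125165709-125166764), with 21 fragments (13 to 32.1) and a fold of 7.78. For these genes the MRP TSS lay far from the site, and a gene at most 683 bp away was closer.

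The remaining TRBS had at most 14 fragments. Mrpl14 was linked to 14 fragments (7.65 to 23.5) in an intron of Tmem63b, an ion channel gene (chr17:45670326-45670743). Mrpl18 was linked to 11 fragments (5.49 to 19.7) in an intron of Pnldc1, an exonuclease gene (chr17:12897011-12897366). Mrps35 was linked to 8 fragments (3.45 to 15.8) in an intron of Ppfibp1 (chr6:147023231-147023612), with a score of 31. Mrpl55 was linked to the weakest, an intergenic TRBS with 6 fragments (2.2 to 13.1) and a score of 24 (chr11:59207105-59207409), and only 0.705% of all TRBS had fewer fragments.

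As a group, the 18 TRBS had a median of 13 fragments, from 6 to 44, against a median of 17 for the 5090 TRBS with a recovered number, and 2 of them were above the upper quartile of 27. The 95% interval of their median, 10 to 26, included the median of the whole list. With a score of at least 60, the order of the medians turned, with 22.5 fragments for the linked TRBS and 20 for all TRBS. The median fold was 8.12 against 9.83. A score of at least 60, the limit set in the study, was reached by 12 of 18 (66.7%, 43.7 to 83.7%) and by 82.4% of all TRBS. Introns held 9 summits (50.0%, 29.0 to 71.0%) and intergenic sequence held 2 (11.1%, 3.10 to 32.8%). Among TRBS linked to any autosomal gene, these shares were 47.6% and 31.5%. The 18 TRBS, linked to 14 genes, were on 6 chromosomes. There were 5 on chromosome 17 and 4 on chromosome 11, 3 of the latter linked to Mrps7. All 78 genes were on 17 chromosomes, and shares per chromosome were not compared.

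**Figure D4:**
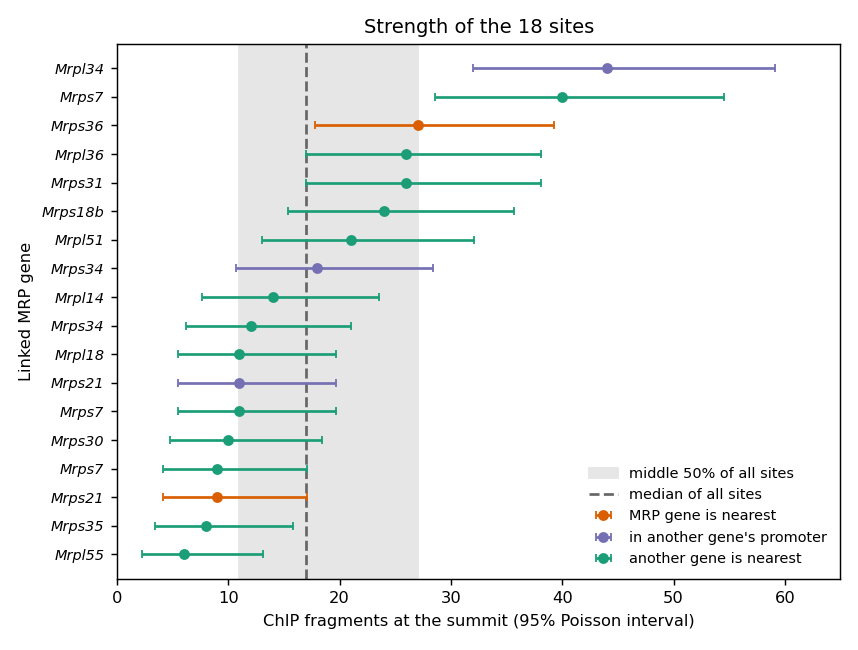
ChIP fragments at the summit of each of the 18 TRBS (x axis, 95% Poisson interval), labeled by the linked MRP gene. The grey band is the middle 50% of the 5090 TRBS of the list with a recovered fragment number (11 to 27 fragments) and the dashed line their median of 17; 2 TRBS, linked to Mrpl34 and Mrps7, lie above the band.

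The promoters of MRP genes were searched for motifs that they have in common. Motifs were searched on both strands without mismatch, except for the DR4. The ETS motif CCGGAAG was present in 36 of 78 MRP promoters (46.2%, 35.5 to 57.1%), against 16.4% of all promoters. The YY1 motif AAGATGGC was present in 17.9% (11 to 27.9%) against 8.56%, and the NRF1 motif in 20.5% (13 to 30.8%) against 10.9%. ETS factors, YY1 and NRF1 are known regulators of nuclear genes for mitochondrial proteins. The SP/KLF motif GGGGCGGGG was present in 15.4% (9.03 to 25.0%) against 19.6%. The set of all genes includes families with tissue-restricted expression, and motif shares were not compared with other sets of widely expressed genes. The same motifs were counted in the TRBS. The SP/KLF motif was in 4 of 18 (22.2%, 9 to 45.2%) against 5.46% of all TRBS and 8.04% of those linked to any gene, and 3 of these 4 had a GC content of 57.5 to 65.2%. GC content had a median of 51.4% and an upper quartile of 62.5% in the linked TRBS, against 51.1% and 55.4% in all TRBS, and its part in the motif counts was not tested. The AGGTCA half-site was in 12 of 18 (66.7%) against 56.0%, and the NRF1 motif was in 1 of 18 (5.56%) against 1.37%. The ETS, YY1 and extended TCAAGGTCA motifs were in 0 of 18, which allows a share of up to 16.7%, and their shares of all TRBS, 4.35%, 2.47% and 2.29%, lie below this limit. In the shorter RefSeq promoters of GRCm38, from 250 bp upstream to 50 bp downstream, 69 of 78 MRP genes were matched and 37.7% (27.2 to 49.5%) of them held the ETS motif, against 9.93% of 27025 genes. These were all genes of that promoter set and not the 20807 autosomal protein-coding genes. Gene set and promoter length therefore changed together. In these shorter promoters the NRF1 motif was in 20.3% against 7% and the YY1 motif in 17.4% against 3.19%. The order turned for the SP/KLF motif, with 18.8% (11.4 to 29.6%) against 12.9%, and for the AGGTCA half-site, with 15.9% (9.14 to 26.3%) against 18.1%. Median promoter GC content was similar, with 49.6% in MRP promoters and 49.2% in all promoters.

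Receptor motifs had about the same shares as in the genome. The half-site AGGTCA was present in 51.3% of MRP promoters (40.4 to 62.1%) and 48.7% of all promoters, and TCAAGGTCA, the extended half-site bound by estrogen-related receptors, in 2.56% and 2.74%. The AGGTCA letters are also contained in that extended half-site and in perfect DR4 elements. A DR4 with at most 2 mismatches was present in 10 MRP promoters (12.8%, 7.12 to 22%) and in 10.8% of all promoters. None of the 10 held a summit, which allows a share of up to 30%, and 4.35% of all promoters with a DR4 held one. The 10 elements had 2 mismatches each. That of Mrpl57 was the closest to a TSS, centred 90 bp upstream, and it is shown with the one of Mrps36 as examples of elements outside TRBS, with half-sites in capitals.
Mrpl57, chr14:57826137-57826152: AGGGGActggAGGTCA
Mrps36, chr13:100745420-100745435: AGGTTAagtcAGGGCA

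**Figure D5:**
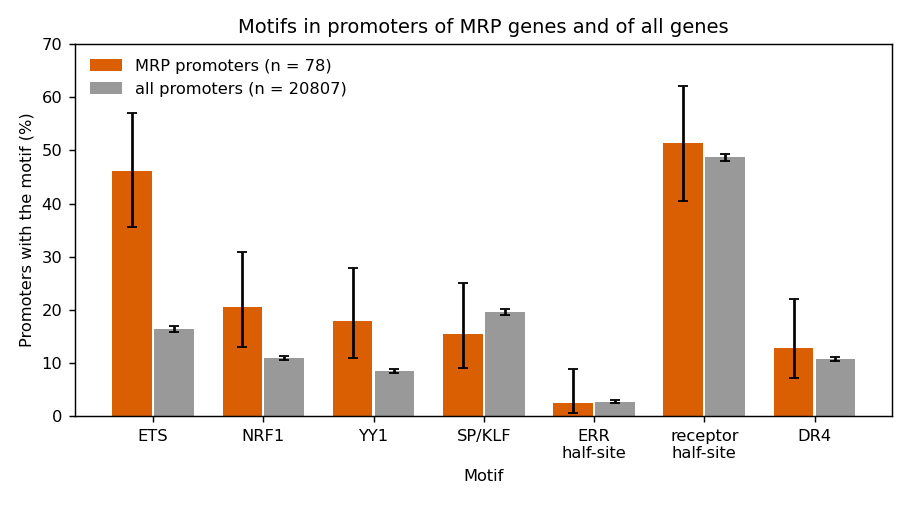
Share of promoters (%, y axis; 1000 bp upstream to 100 bp downstream of the TSS) with each motif (x axis) for the 78 MRP genes and all 20807 genes, with 95% Wilson intervals. The ETS motif is present in 46.2% of MRP promoters against 16.4%, and the DR4 in 12.8% against 10.8%.

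Other genes of mitochondrial gene expression were described by the same counts. Of 77 genes in 5 lists, 8 had a TRBS within 30 kb (10.4%, 5.36 to 19.2%), beside the 17.3% of all genes, and 0 had one in the promoter, which allows a share of up to 3.9%. The 5 mitoribosome proteins with other names, Dap3, Ptcd3, Aurkaip1, Chchd1 and Gadd45gip1, had none within 30 kb. Translation factors had one in 2 of 11 cases (Mtfmt and Mtif3), assembly and rRNA factors in 3 of 28 (Mpv17l2, Mtg1 and Rcc1l), aminoacyl-tRNA synthetases and related enzymes in 2 of 20 (Cars2 and Qrsl1), and genes for mitochondrial DNA transcription and upkeep in 1 of 13 (Tfb2m). In this set, Cars2 and Qrsl1 were the nearest gene of their TRBS. The summit at Qrsl1, a subunit of the enzyme that makes mitochondrial glutaminyl-tRNA, was 184 bp downstream of its TSS, in the promoter of Rtn4ip1, with 26 fragments (17.0 to 38.1) and a DR4.

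Cytosolic ribosomal protein genes had a TRBS in 16 of 74 cases (21.6%, 13.8 to 32.3%), an interval that holds the 17.3% of all genes, and 3 of them had it in their own promoter (4.05%, beside 1.82% of all genes). These were Rpl13a with 31 fragments (21.1 to 44), Rpl15 with 16 (9.15 to 26.0) and Rps28 with 9 (4.12 to 17.1), and the first 2 held a DR4. The TRBS of Rps28 was nearest to the TSS of another gene, Ndufa7, which codes for a subunit of complex I. Among markers of the labeled cell type, 8 of 11 adipocyte genes had a TRBS within 30 kb, beside 17.3% of all genes. Those with one in their own promoter were Ucp1, the uncoupling protein of brown fat, with 27 fragments (17.8 to 39.3), the lipid droplet gene Plin1 with 21 (13 to 32.1) and Cidea with 7 (2.81 to 14.4). Of the 8 markers of immune, endothelial, stromal and muscle cells 0 had a TRBS within 30 kb, and with 8 genes the share of all genes could not be told from 0. Expression was not measured here, so these counts describe receptor occupancy in chromatin and not the activity of any gene.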

How the data were processed

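ChIP and input libraries of 1 condition were available as 1 peak list. Per the submitters' processing notes, the authors aligned paired-end reads to mm10 (GRCm38) with Bowtie2 (2.3.2.2) and called peaks with MACS2 (2.1.1.20160309.6). The deposited score is 10 times the −log10 q-value, rounded down. The deposited fold is the ratio of ChIP pileup to input background at the summit, with 1 added to both, and the deposited −log10 p-value and q-value come from a Poisson test. The list was not filtered at a score of 60, since 897 of 5107 peaks were below it, and all peaks were kept. Read totals were not used. Fold and p-value together gave the whole number of ChIP fragments at the summit and the background on the same scale, within 0.0005 of the −log10 p, for 5090 peaks (99.7%), including the 18 described here.

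Gene positions were taken from the basic GENCODE annotation (release M21), with the 5′ end of the gene as TSS, and sequences from GRCm38.p6. A summit was given the first of these classes that applied: promoter, either UTR (5′ before 3′), coding exon, intron, intergenic. Intervals are 95% Wilson intervals for shares (for a share of 0, the limit is 3 counts of the total), exact Poisson intervals for fragments and order-statistic intervals for medians. They cover counting error only, and fragments were not counted by molecular identifiers. The NRF1 motif was searched by its half-sites GCGC around 2 free bases. The members, gene lists and motifs were chosen with earlier results of these data known. By rule, each MRP gene with a TRBS is named, and in the other lists genes with a TRBS in their own promoter. Genes named outside this rule (at the 30 kb limit, with a promoter DR4, Mrpl48, and those of short lists) were picked after their values were seen. One symbol of the translation factors had no match. Python 3.11.15, numpy 2.4.6, pandas 2.3.3 and scipy 1.17.1 were used, and the linking, fragment and motif steps were tested on simulated data. The genes around the TRBS linked to Mrps7 are not reported here.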

Additional observations from a re-analysis of the deposited data

How the results depend on the processing

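No paired analysis was possible because there is 1 ChIP and 1 input library and no replicate. Of 66 recomputed values, 32 were unchanged and 34 moved. Values were called unchanged within the 95% interval of a share or median, or within 1.5 times a count. The 14 MRP genes and 18 TRBS became 6 and 6 with a limit of 10 kb, 38 and 57 with 100 kb, and 9 and 9 with a score of at least 100. With a score of at least 60, 10 genes and 12 TRBS were left, without Mrpl55, Mrps21, Mrps30 and Mrps35, beside 14.6% of all genes. The starts of all basic transcripts gave 15 genes, with Mrpl48 added. Promoters of 500 or 1000 bp on both sides of the TSS held a TRBS in 1 MRP gene, Mrps30, in place of 0, against 2.32% and 3.13% of all genes. TRBS nearest to the MRP gene numbered 2, and 1 with a score of at least 60. They numbered 3 with the starts of all basic transcripts and 2 with the nearest TSS of any gene type. There were 4 when starts at most 1 kb farther than the nearest were counted, a setting added after the data were seen. The DR4 share of 27.8% was 5.56% with at most 1 mismatch and 77.8% with at most 3, where all TRBS gave 7.23% and 72.5%, so the linked TRBS were below all TRBS in the first case and above them in the second. The order against all genes or all TRBS also turned for the share of genes with a TRBS (17.9% against 17.3%), which was 7.69% against 8.38% with 10 kb, 12.8% against 14.6% with a score of at least 60 and 11.5% against 11.8% with at least 100, and for the median fragments (13 against 17), which were 22.5 against 20 with a score of at least 60. Leaving out Mrps36, or TRBS with a background over 10 fragments, also chosen after the data were seen, gave 13 and 14 genes. Both outcomes were fixed beforehand, since Mrps36 has 1 TRBS and the highest background of the 18 was 2.13. These values count among the unchanged ones but say nothing about stability. With 78 genes and 1 library, a difference of the size of the promoter share from the genome was not detectable.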
